A study of Homo sapiens with 4 samples.

Results

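The circadian clock genes here are 10 genes from the core loop, the second loop and the targets of the molecular clock: ARNTL, CLOCK, PER1, PER2, PER3, CRY1, CRY2, NR1D1, NR1D2 and DBP. They were measured in human multiple myeloma cells in which PKCα, the kinase that PRKCA encodes, had or had not been stably knocked down. The set was chosen because ARNTL was among the genes most raised by the knockdown in both cell lines, and the other 9 were added as its textbook partners. All 10 were found among the 22187 genes of the tables, each under 1 identifier, and all 10 passed the filter on low counts that left 14870 genes for testing.

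The study used KMS28BM and KMS18, established lines of malignant plasma cells labelled as bone marrow, both of which carry t(4;14), a translocation that brings NSD2 and FGFR3 next to the immunoglobulin heavy chain enhancers. The 4 groups, with 1 RNA sequencing library each, were KMS28BM with the stable PKCα knockdown (labelled KDPKCa), KMS28BM with the control construct (labelled Luc), KMS18 with the same knockdown and KMS18 with the same control. The translocation was thus shared by all 4 groups. The labels give no clock time of harvest, no synchronisation of the cells and no number of knockdown clones or sequences. Only the 2 lines replicate the knockdown, and only the 2 constructs replicate the difference between lines. A p-value over the libraries therefore rests on no repeated culture of the same line and construct. Its error joins how unlike the lines or constructs moved for that gene with an error estimated over all genes. Spread between cultures is part of that error and cannot be told apart from a true difference in how the lines or constructs moved. In the main fit the gene's own part had 1 residual degree of freedom and the shared part 5.85 prior degrees of freedom, so the shared part weighs more. The SE given with each test comes from the same error.

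In the textbook clock, ARNTL (also called BMAL1) and CLOCK pair on E-boxes and raise transcription of the PER and CRY genes, whose proteins return to the nucleus and inhibit the pair. A second loop runs through NR1D1 and NR1D2, the nuclear receptors REV-ERBα and REV-ERBβ, which are also E-box targets and repress ARNTL at ROR elements, where the ROR receptors activate it. DBP is an E-box target as well, and its protein activates genes through D-boxes. Lymphoid cells, like most cells, are known to hold a clock of their own.

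Promoter sequences are shown for the clock motifs they hold. They are those of the genes at the centre of the second loop and of PER3, which differed most between the lines among the 10 genes. They come from RefSeq (GRCh38.p14) and cover 250 bases before to 50 bases after an annotated start, 5′ to 3′ on the gene's strand, with motif matches in capitals. For ARNTL, NR1D2 and PER3, which have 2 annotated windows each, only the window with matches is shown.
ARNTL, chr11:13277540-13277839, plus strand, with 2 ROR elements: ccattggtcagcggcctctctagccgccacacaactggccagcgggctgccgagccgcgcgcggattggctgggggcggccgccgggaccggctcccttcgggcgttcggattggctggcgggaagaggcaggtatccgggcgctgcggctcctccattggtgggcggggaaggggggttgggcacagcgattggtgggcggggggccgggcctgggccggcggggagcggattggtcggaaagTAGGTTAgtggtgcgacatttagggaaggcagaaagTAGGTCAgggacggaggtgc
NR1D1, chr17:40100540-40100839, minus strand, with an E-prime box read on the opposite strand: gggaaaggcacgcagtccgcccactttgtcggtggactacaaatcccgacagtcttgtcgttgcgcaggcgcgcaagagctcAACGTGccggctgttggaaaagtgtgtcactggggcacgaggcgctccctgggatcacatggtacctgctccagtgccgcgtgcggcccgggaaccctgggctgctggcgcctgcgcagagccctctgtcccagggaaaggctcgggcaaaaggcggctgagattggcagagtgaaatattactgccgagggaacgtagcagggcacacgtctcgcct
NR1D2, chr3:23945871-23946170, plus strand, with a D-box read on the opposite strand and 2 E-boxes: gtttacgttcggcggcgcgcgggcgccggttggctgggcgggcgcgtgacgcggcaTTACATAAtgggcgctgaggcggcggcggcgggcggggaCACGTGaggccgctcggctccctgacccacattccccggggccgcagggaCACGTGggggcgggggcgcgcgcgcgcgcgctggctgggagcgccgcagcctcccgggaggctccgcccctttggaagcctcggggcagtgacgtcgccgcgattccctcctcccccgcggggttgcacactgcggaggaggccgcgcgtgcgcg
PER3, chr1:7784041-7784340, plus strand, with a D-box: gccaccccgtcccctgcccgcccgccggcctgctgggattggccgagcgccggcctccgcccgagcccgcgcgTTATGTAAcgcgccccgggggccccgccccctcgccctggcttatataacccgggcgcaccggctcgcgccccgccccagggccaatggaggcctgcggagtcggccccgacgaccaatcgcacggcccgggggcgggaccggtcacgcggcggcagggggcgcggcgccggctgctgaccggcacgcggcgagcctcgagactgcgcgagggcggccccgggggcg

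The E-box, the E-prime box, the D-box, the ROR element and the cyclic AMP element were searched on both strands in the 15 annotated windows of the 10 genes. Their letters were CACGTG for the E-box, CACGTT for the E-prime box, TTATGTAA or TTACGTAA for the D-box, TAGGTCA or TAGGTTA for the ROR element and TGACGTCA for the cyclic AMP element. No letters were counted for more than 1 motif. In its window 1 ARNTL held TAGGTTA from 6 bases before the start and TAGGTCA from 31 bases after it, and its window 2 held none of the motifs. CRY2 was the other gene with a ROR element, while 2.9% of all 35116 promoter windows in the table held one. The E-box was present in PER1 and in NR1D2, against 7.26% of all windows. NR1D2 held it at -155 and -105 in its window 2, and its window 1 held none of the motifs. The E-prime box was present in CLOCK, PER2, CRY1, CRY2 and NR1D1 (5 of the 10 genes, against 5.34% of windows), but only 2 of them held it on the gene strand itself. The D-box was present in PER2, PER3 and NR1D2, against 1.01% of windows. No window of the 10 genes held the cyclic AMP element in these letters, and the DBP window held none of the motifs searched. A match is a run of letters and not a measured binding site. A gene was counted if any of its windows held the motif, and some genes have 2 windows. The shares of all windows count each window separately, so they are not on the same scale as the counts of genes.

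**Figure D1:**
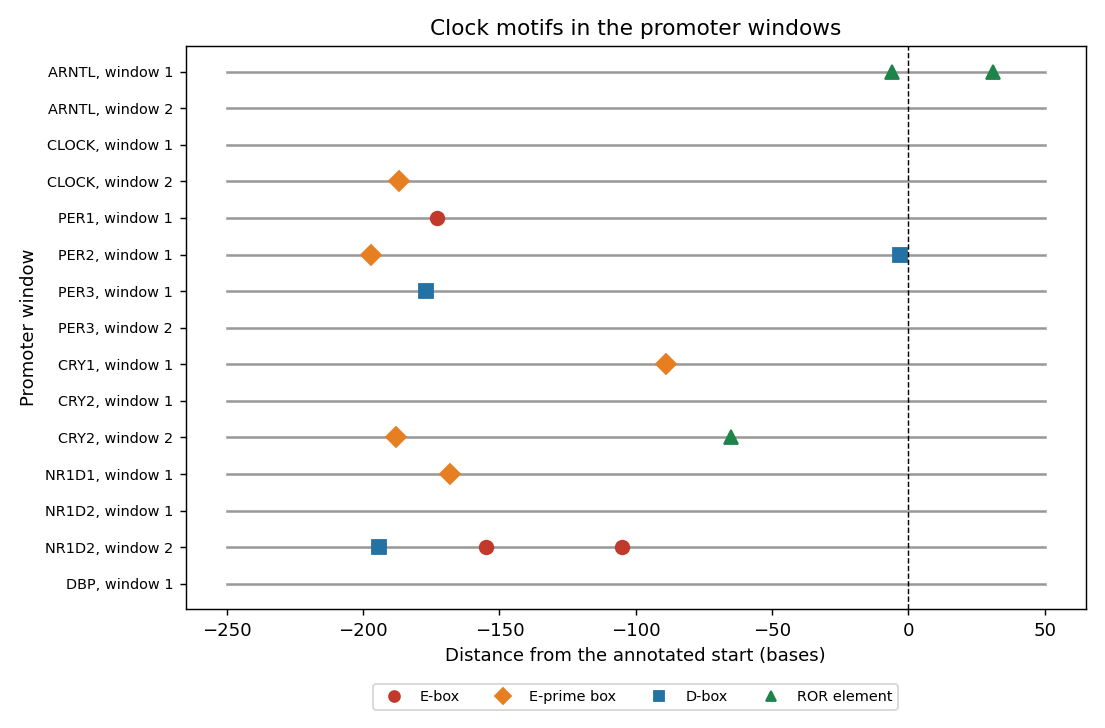
Clock motifs in the 15 promoter windows of the 10 genes; the x axis is the distance in bases from the annotated start (dashed line at 0), each grey line is 1 window and each symbol 1 match on either strand. ARNTL window 1 holds both of its ROR elements close to the start, at -6 and 31, whereas the matches of NR1D2 window 2 lie between -194 and -105.

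The libraries held between 37940949 and 39507281 expected counts. PRKCA, the target, was listed at 2.43 FPKM (fragments scaled to gene length and library size) in KMS28BM knockdown cells against 10.86 FPKM in KMS28BM control cells, and at 1.47 FPKM in KMS18 knockdown cells against 7.46 FPKM in KMS18 control cells, which left 22.4% and 19.7% of the control level. Plasma cell markers fitted the label: 9 of 10 reached 1 FPKM in every library, and CD27 was listed at 0 in all. Their summed level was 7932.72 FPKM in KMS28BM knockdown cells and 8661.34 FPKM in KMS28BM control cells, and 6599.14 FPKM in KMS18 knockdown cells and 7689.6 FPKM in KMS18 control cells, so it moved with the knockdown. JCHAIN made up most of that sum; without it the sum was 1172.97 FPKM in KMS28BM knockdown cells and 1971.87 FPKM in KMS28BM control cells (59.5% of control), and 1223.55 FPKM in KMS18 knockdown cells and 1988.63 FPKM in KMS18 control cells (61.5%). Of the 10 markers, 7 were listed lower in the knockdown library of both lines and CD38 higher in both. NSD2 and FGFR3, the genes of the translocation, summed to 638.56 FPKM in KMS28BM knockdown cells and 764.47 FPKM in KMS28BM control cells, and to 444.65 FPKM in KMS18 knockdown cells and 683.18 FPKM in KMS18 control cells. The summed level of 4 T cell markers also moved with it, at 3.41 FPKM in knockdown and 1.14 FPKM in control cells of KMS28BM and 21.53 FPKM in knockdown and 7.71 FPKM in control cells of KMS18. CD3E carried that sum, while CD3D did not pass 0.22 FPKM in any library. The summed levels of the other marker lists ranged from 0.1 to 2.41 FPKM for B cells, 0.26 to 1.9 for NK cells, 0.17 to 0.52 for myeloid cells, 0.2 to 0.61 for erythroid cells and 0.11 to 0.37 for stroma. HBA1 and COL1A2 were listed at 0 throughout. The part of these shifts in the clock gene values was not tested.

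ARNTL, the DNA-binding partner of CLOCK (ENSG00000133794, chr11:13276652-13387266, plus strand, GRCh38), was the gene the set was chosen by, so its knockdown values are a description. It was listed at 24.6 FPKM in KMS28BM knockdown cells against 7.12 FPKM in KMS28BM control cells, and at 8.49 FPKM in KMS18 knockdown cells against 3.44 FPKM in KMS18 control cells. Both knockdown libraries were above both control libraries. The levels were 3.46 times the control in KMS28BM and 2.47 times the control in KMS18. In expected counts the libraries held 2395 and 702 in KMS28BM (knockdown, then control) and 858 and 361 in KMS18. The log2 ratio of scaled counts was 1.71 in KMS28BM (95% interval 1.58 to 1.83) and 1.19 in KMS18 (1.01 to 1.37). These intervals are exact intervals for a ratio of 2 Poisson counts and cover counting error only. The fit over both lines gave 1.46 on the log2 scale (SE 0.15, n = 2 lines). In bulk RNA, fewer cells that express a gene and less RNA per cell cannot be told apart, here and for every gene below.

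Among the 7888 genes that reached 5 FPKM in both lines, ARNTL stood at rank 9 by the smaller of its differences in log2(FPKM + 1), which were 1.657 in KMS28BM and 1.096 in KMS18. The earlier ranking stopped at 12 genes. The last inside it was MYO1D, with a smaller difference of 1.059, and the first outside was COTL1, with 1.045.

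**Figure D2:**
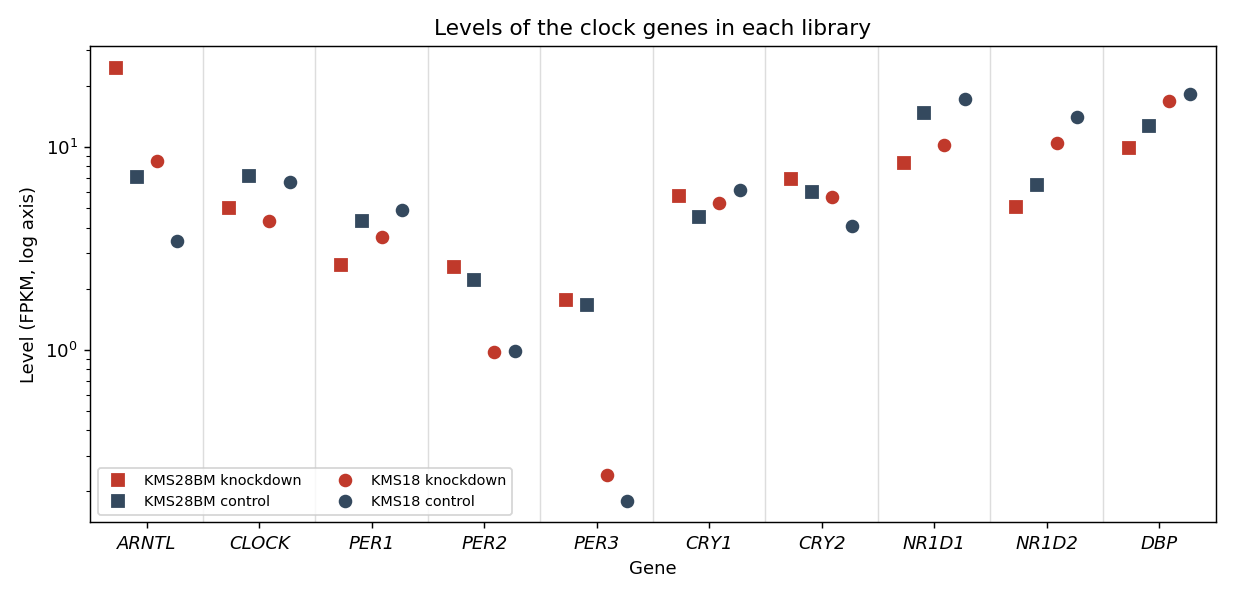
Levels of the 10 clock genes in the 4 libraries; the y axis is FPKM on a log axis, squares are KMS28BM, circles are KMS18, red is knockdown and dark blue is control, with 1 point per library and no error bar. ARNTL lies higher in knockdown than in control cells of each line, at 24.6 FPKM in KMS28BM knockdown cells, while NR1D1, NR1D2, CLOCK, PER1 and DBP lie lower in the knockdown library of each line.

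The REV-ERB pair was lower in the knockdown cells of both lines. NR1D1 (ENSG00000126368, chr17:40092787-40100725, minus strand) was listed at 8.34 FPKM in KMS28BM knockdown cells against 14.76 FPKM in KMS28BM control cells, and at 10.23 FPKM in KMS18 knockdown cells against 17.16 FPKM in KMS18 control cells. The knockdown and control values did not overlap. The log2 ratio of counts was -0.90 in KMS28BM (-1.02 to -0.78) and -0.81 in KMS18 (-0.92 to -0.70), near enough for the counting intervals of the lines to overlap. Over both lines NR1D1 fell by 0.85 on the log2 scale (SE 0.11, and adjusted p = 0.0095 by edgeR's quasi-likelihood test, adjusted over all genes by the Benjamini-Hochberg method). It passed 0.05 in all 7 alternatives that kept cell line in the model.

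NR1D2 (ENSG00000174738, chr3:23945260-23980618, plus strand) was listed at 5.06 FPKM in KMS28BM knockdown cells against 6.47 FPKM in KMS28BM control cells, and at 10.42 FPKM in KMS18 knockdown cells against 14.11 FPKM in KMS18 control cells. Its knockdown and control values overlapped across lines, because the KMS18 knockdown library stood above the KMS28BM control library, but within each line the knockdown library was the lower one. The log2 ratio was -0.45 in KMS28BM (-0.58 to -0.32) and -0.51 in KMS18 (-0.59 to -0.42). NR1D2 fell by 0.48 over both lines (SE 0.10, and adjusted p = 0.0372 by edgeR). This call held in 3 of 7 alternatives, whose adjusted p ran from 0.0331 to 0.102.

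Levels of the second loop can be set side by side within a library, although the choice of the set by ARNTL fixes the direction of any ratio to ARNTL. ARNTL stood at 2.95 times the FPKM of NR1D1 in KMS28BM knockdown cells against 0.482 times in KMS28BM control cells, and at 0.83 times in KMS18 knockdown cells against 0.2 times in KMS18 control cells. The summed FPKM of NR1D1 and NR1D2 was 13.4 in KMS28BM knockdown cells against 21.23 in KMS28BM control cells, and 20.65 in KMS18 knockdown cells against 31.27 in KMS18 control cells. FPKM is scaled to gene length, which allows levels of different genes to be compared.

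NR1D1 shares 263 of its 2772 exonic bases (9.5%) with THRA, the thyroid hormone receptor alpha gene on the opposite strand, in the GENCODE annotation (version 29). The library kit did not keep strand, so reads in the shared stretch cannot be told apart. THRA was listed at 11.92 FPKM in KMS28BM knockdown cells and 10.41 FPKM in KMS28BM control cells, and at 4.32 FPKM in KMS18 knockdown cells and 3.16 FPKM in KMS18 control cells, the other way from NR1D1. NR1D2 shares no exonic base with its neighbour NKIRAS1.

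CLOCK, the histone acetyltransferase partner of ARNTL (ENSG00000134852, chr4:55427903-55547138, minus strand), was lower in the knockdown cells of both lines. It was listed at 5.01 FPKM in KMS28BM knockdown cells against 7.17 FPKM in KMS28BM control cells, and at 4.33 FPKM in KMS18 knockdown cells against 6.69 FPKM in KMS18 control cells. Both knockdown libraries were below both control libraries. The log2 ratio of counts was -0.51 in KMS28BM (-0.62 to -0.40) and -0.74 in KMS18 (-0.85 to -0.62). CLOCK fell by 0.62 on the log2 scale over both lines (SE 0.11, and adjusted p = 0.0236 by edgeR), a call that held in 4 of 7 alternatives (adjusted p 0.0127 to 0.0682).

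CLOCK was also the only one of the 10 genes whose 3′ UTR held AGTCTA, a motif that an earlier analysis of these data picked out, after its calls, among genes lowered in the knockdown. The longest annotated 3′ UTR of CLOCK (7512 bases) holds it at 2 places, shown here with the motif in capitals.
CLOCK 3′ UTR, motif at base 3761: cgcattcaAGTCTAtaaccttt
CLOCK 3′ UTR, motif at base 4275: cataccacAGTCTAaaagcatc
AGTCTA was present in 25.4% of the 12772 tested genes with an annotated 3′ UTR and in 54.1% of the 750 such genes that were called lower in the knockdown. The motif was picked among genes lowered in these same data, so a higher share in the lowered genes follows from that choice and is no evidence. CLOCK is itself among the 750. The UTR of CLOCK is the longest among the 10 genes, and a longer sequence holds any motif more often. The part of the motif in the fall of CLOCK was not tested.

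The PER genes encode the repressors that set the pace of the loop. PER1 (chr17:8140472-8156506, minus strand) was listed at 2.62 FPKM in KMS28BM knockdown cells against 4.30 FPKM in KMS28BM control cells, and at 3.58 FPKM in KMS18 knockdown cells against 4.86 FPKM in KMS18 control cells. The libraries did not overlap between the constructs. With 1 library per line and construct such a separation is no test, here or for the other genes, and its share over all genes was not counted. In counts the difference was smaller, with a log2 ratio of -0.53 in KMS28BM (-0.71 to -0.35) and -0.22 in KMS18 (-0.40 to -0.03), and -0.37 over both lines (SE 0.15, and adjusted p = 0.177 by edgeR). The tables listed PER1 with a different length in each library, 4243.28 bases in KMS28BM knockdown and 3538.94 in KMS28BM control cells (19.9% longer), and 3395.34 bases in KMS18 knockdown and 2802.31 in KMS18 control cells (21.2% longer). Of 10882 genes at 1 FPKM or more in every library, 34 (0.312%) were longer by at least that much in both lines, and the median absolute change was 2.09% in KMS28BM and 2.31% in KMS18. The other 9 clock genes changed in listed length by between -10.7% and 6.0%.

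PER2 (chr2:238244038-238290102, minus strand) was listed at 2.56 FPKM in KMS28BM knockdown cells against 2.20 FPKM in KMS28BM control cells, and at 0.97 FPKM in KMS18 knockdown cells against 0.98 FPKM in KMS18 control cells. The 2 libraries of each line lay close together, and the lines lay apart. The log2 ratio was 0.14 in KMS28BM (-0.03 to 0.31) and -0.13 in KMS18 (-0.40 to 0.14), and the fit gave 0.01 (SE 0.16, and adjusted p = 0.973 by edgeR). PER3 (chr1:7784320-7845177, plus strand) was the lowest of the 10 genes in every library, at 1.75 FPKM in KMS28BM knockdown and 1.66 FPKM in KMS28BM control cells, and at 0.24 FPKM in KMS18 knockdown and 0.18 FPKM in KMS18 control cells. Its KMS18 libraries held only 38 and 33 expected counts (knockdown, then control), and the log2 ratio there, 0.14, had an interval from -0.57 to 0.86. Over both lines PER3 differed by 0.08 (SE 0.26, and adjusted p = 0.886 by edgeR).

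The CRY genes encode the flavoproteins that block the ARNTL and CLOCK pair directly. CRY1 (chr12:106991364-107093829, minus strand) was listed at 5.70 FPKM in KMS28BM knockdown cells against 4.49 FPKM in KMS28BM control cells, and at 5.28 FPKM in KMS18 knockdown cells against 6.14 FPKM in KMS18 control cells. It was thus higher in knockdown cells of 1 line and lower in those of the other, with log2 ratios of 0.20 (0.03 to 0.37) in KMS28BM and -0.32 (-0.48 to -0.16) in KMS18. The fit gave -0.06 (SE 0.16, and adjusted p = 0.855 by edgeR). CRY2 (chr11:45847118-45883248, plus strand) was listed at 6.94 FPKM in KMS28BM knockdown cells against 6.02 FPKM in KMS28BM control cells, and at 5.64 FPKM in KMS18 knockdown cells against 4.08 FPKM in KMS18 control cells. Its log2 ratio was 0.08 in KMS28BM (-0.05 to 0.21) and 0.39 in KMS18 (0.24 to 0.54), and the fit gave 0.23 (SE 0.13, and adjusted p = 0.314 by edgeR).

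DBP, the D-box activator (chr19:48630030-48637438, minus strand), was listed at 9.88 FPKM in KMS28BM knockdown cells against 12.72 FPKM in KMS28BM control cells, and at 16.87 FPKM in KMS18 knockdown cells against 18.29 FPKM in KMS18 control cells. The knockdown library was the lower one in each line, although the constructs overlapped across lines. Its log2 ratio was -0.49 in KMS28BM (-0.66 to -0.33) and -0.35 in KMS18 (-0.48 to -0.21), and the difference over both lines, -0.42, did not pass (SE 0.12, and adjusted p = 0.0824 by edgeR). By FPKM the KMS18 knockdown level was 92.2% of control, a smaller fall than in counts. The listed length of DBP changed by -10.7% in KMS18 and by -3.6% in KMS28BM. DBP shares 661 of 6544 exonic bases (10.1%) with SPHK2, sphingosine kinase 2, on the opposite strand, and SPHK2 was listed at 20.11 FPKM in KMS28BM knockdown and 12.85 FPKM in KMS28BM control cells, and at 10.17 FPKM in KMS18 knockdown and 8.01 FPKM in KMS18 control cells.

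Of the 9 genes other than ARNTL, 3 passed the knockdown test (NR1D1, CLOCK and NR1D2), all of them lower, and 6 did not. Their median difference was -0.37 on the log2 scale, beside 0.02 for all genes tested, of which 8.82% were called (3.57% higher and 5.25% lower). Of those calls, 59.5% were lower in the knockdown, a share that was 47.3% with limma on log2(FPKM + 1). The set was chosen with this comparison known, so neither the count nor the median is evidence that the clock genes differ from other genes. The deposited values carry no replicate within a line, and with cell line left out of the model the adjusted p of each of the 9 genes was 1.

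**Figure D3:**
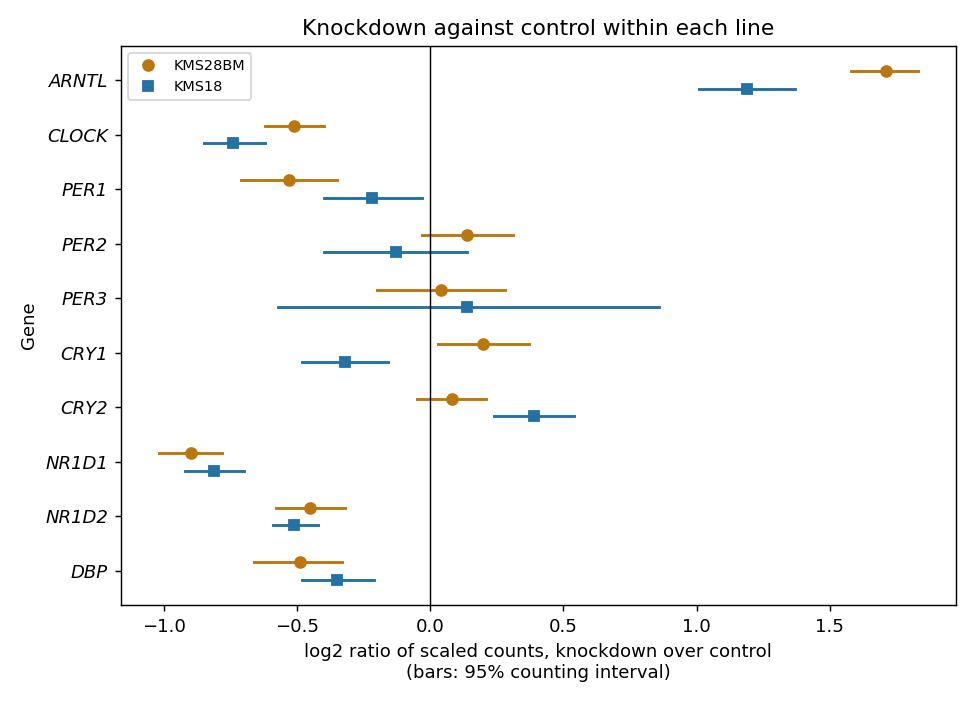
Knockdown over control within each line; the x axis is the log2 ratio of scaled counts, circles are KMS28BM, squares are KMS18, and bars are 95% counting intervals, which hold no spread between cultures. NR1D1, NR1D2, CLOCK, PER1 and DBP lie left of 0 in both lines, ARNTL lies at 1.71 and 1.19, and CRY1 lies on opposite sides of 0.

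Likeness to ARNTL over the 4 libraries is a description, because it uses the values by which ARNTL was chosen. Genes raised in both lines stand near ARNTL by that choice, and the closest ones were from outside the clock. Likeness was the root mean square distance over the 4 libraries between values of log2(FPKM + 1) centred on each gene's mean, among 9482 genes that reached 5 FPKM in a library. The 5 closest were PIP5K1C, a kinase that makes phosphatidylinositol bisphosphate (distance 0.093), CPTP, a ceramide-1-phosphate transfer protein (0.137), TTYH3 (0.157), ABHD8 (0.221) and JOSD2, a deubiquitinating enzyme (0.235). PIP5K1C was listed at 26.31 FPKM in KMS28BM knockdown and 8.46 FPKM in KMS28BM control cells, and at 9.11 FPKM in KMS18 knockdown and 4.51 FPKM in KMS18 control cells. PER1, PER2 and PER3 stayed below 5 FPKM in every library and did not enter the ranking. Of the clock genes that entered it, CRY2 came nearest at rank 1477 and NR1D2 stood farthest at rank 8585.

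The difference between the lines was not used to choose the genes, and 6 of the 10 passed its test. ARNTL, PER2 and PER3 were higher in KMS28BM, NR1D1, NR1D2 and DBP were lower, and CLOCK, PER1, CRY1 and CRY2 did not pass. The 2 lines differed widely, with 30.6% of all genes tested called higher and 32.3% called lower in KMS28BM (62.9% in all), so a share of 6 in 10 is near the background. The median over the 10 genes was 0.02 on the log2 scale, beside -0.02 for all genes.

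PER3 had the widest difference among the 10 genes. It stood at 7.29 times the KMS18 level in KMS28BM knockdown cells and at 9.22 times in KMS28BM control cells, and both KMS28BM libraries were above both KMS18 libraries. PER3 was higher in KMS28BM by 2.88 on the log2 scale (SE 0.27, and adjusted p = 0.000125 by edgeR). It shares 868 of 8099 exonic bases (10.7%) with UTS2, the urotensin 2 gene on the opposite strand, which was listed at 2.15 FPKM in KMS28BM knockdown and 1.46 FPKM in KMS28BM control cells and at 0 in both KMS18 libraries, and the part of UTS2 reads in the PER3 difference was not tested. PER2, at 2.64 times the KMS18 level in knockdown cells and 2.24 times in control cells, was higher by 1.24 (SE 0.17, and adjusted p = 0.000635 by edgeR). PER1, whose libraries overlapped between the lines, differed by -0.06 (SE 0.15, and adjusted p = 0.733 by edgeR).

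ARNTL was higher in KMS28BM with either construct, with log2 ratios of 1.35 between the knockdown libraries and 0.83 between the control libraries. The fit gave 1.10 (SE 0.15, and adjusted p = 0.000711 by edgeR), a call that was lost when construct was left out of the model (edgeR, adjusted p = 0.186). NR1D1, NR1D2 and DBP stood the other way, whereas PER2 and PER3 were higher in KMS28BM like ARNTL. NR1D2 in KMS28BM was at 0.486 times the KMS18 level in knockdown cells and at 0.459 times in control cells, and it was lower, with a log2 difference of -1.22 (SE 0.10, and adjusted p = 8.11e-05 by edgeR). DBP was lower in KMS28BM, with a difference of -0.75 (SE 0.12, and adjusted p = 0.00168 by edgeR, or 0.0573 without construct in the model). The difference of NR1D1 was smaller, -0.34 (SE 0.11, and adjusted p = 0.0283 by edgeR), and passed in 4 of 7 alternatives, whose adjusted p ran from 0.0258 to 0.106.

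CLOCK, CRY1 and CRY2, like PER1, did not pass the test between the lines. CLOCK differed by 0.10 (SE 0.11, and adjusted p = 0.464 by edgeR), CRY1 by -0.32 (SE 0.16, and adjusted p = 0.125 by edgeR) and CRY2 by 0.30 (SE 0.13, and adjusted p = 0.081 by edgeR). A difference that misses the threshold does not show equal levels, and between the control libraries the log2 ratio was -0.58 for CRY1 (-0.74 to -0.41) and 0.46 for CRY2 (0.31 to 0.60). In the order of FPKM levels, DBP and NR1D1 were the first pair in both control libraries and PER2 and PER3 the last pair in all 4 libraries. ARNTL was the highest of the 10 in KMS28BM knockdown cells, at rank 4 in KMS28BM control cells, at rank 4 in KMS18 knockdown cells and at rank 8 in KMS18 control cells. With 1 library each, no neighbours in that order can be tested.

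**Figure D4:**
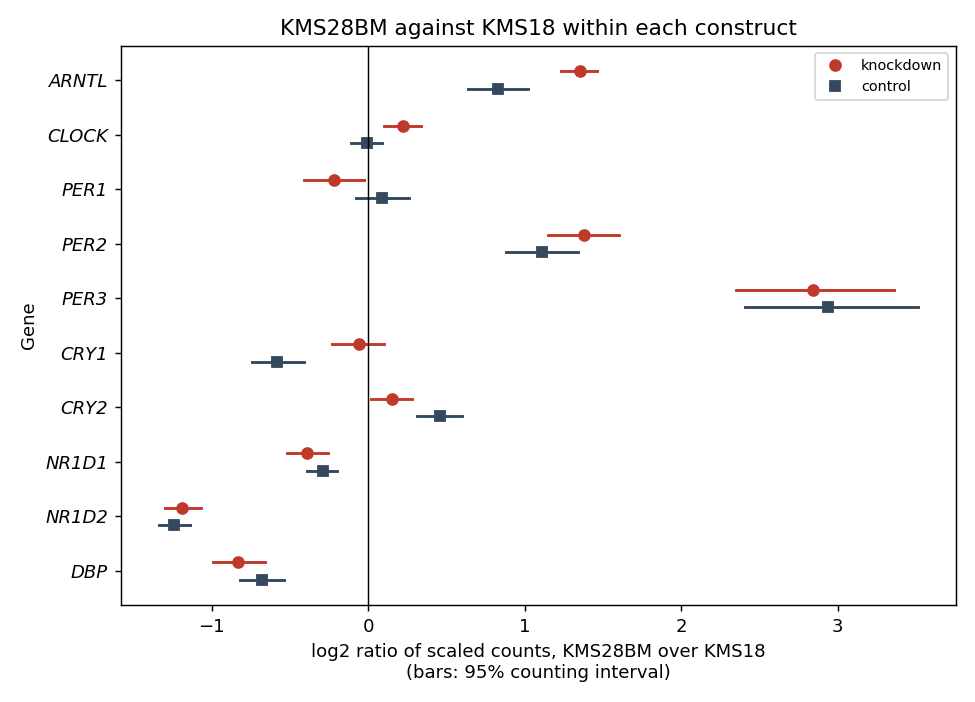
KMS28BM over KMS18 within each construct; the x axis is the log2 ratio of scaled counts, circles are knockdown libraries, squares are control libraries, and bars are 95% counting intervals. PER3, PER2 and ARNTL lie right of 0 and NR1D2, DBP and NR1D1 lie left of 0 with both constructs, PER3 at 2.84 and 2.94.

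Other genes of the clock were taken from 4 lists of 57 genes in all, of which 54 were measured above the filter. In the knockdown 5 of the 54 passed, which is near the share of all genes called in either direction (8.82%). All 5 were lower, and of all genes tested 5.25% were called lower and 3.57% higher. The lists were chosen with earlier results of these data known, so this count is no evidence about clock genes. The median of the 54 was -0.09, beside 0.02 for all genes. TEF, a D-box activator related to DBP, was the one that passed among 11 other transcription factors of the loops, with a fall of 0.90 on the log2 scale (SE 0.20, and adjusted p = 0.0383 by edgeR). It was listed at 2.0 FPKM in KMS28BM knockdown cells against 2.78 FPKM in KMS28BM control cells, and at 1.42 FPKM in KMS18 knockdown cells against 3.04 FPKM in KMS18 control cells.

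The 20 modifiers of clock proteins that were tested had a median difference of -0.11, and among those that passed was USP2, a deubiquitinase that acts on PER and CRY proteins. USP2 fell by 1.09 (SE 0.13, and adjusted p = 0.00891 by edgeR), and was listed at 33.87 FPKM in KMS28BM knockdown cells against 69.10 FPKM in KMS28BM control cells, but at only 0.20 FPKM in KMS18 knockdown cells against 0.36 FPKM in KMS18 control cells. Among 15 cofactors, WDR5, a subunit of histone methyltransferase complexes, fell by 0.49 (SE 0.09, and adjusted p = 0.0266 by edgeR), at 21.12 FPKM in KMS28BM knockdown cells against 29.59 FPKM in KMS28BM control cells and 28.57 FPKM in KMS18 knockdown cells against 37.57 FPKM in KMS18 control cells. The other cofactor that passed was TIMELESS, named here after its value was seen, which fell by 0.42 (SE 0.10, and adjusted p = 0.0472 by edgeR).

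The 8 clock output genes had a median difference of -0.14 in the knockdown. The members with the highest mean FPKM over the 4 libraries were NAMPT, the rate-limiting enzyme of NAD salvage, with a difference of -0.225 (SE 0.11, and adjusted p = 0.25 by edgeR), and ALAS1, the first enzyme of heme synthesis, with -0.02 (SE 0.10, and adjusted p = 0.938 by edgeR). In the KMS28BM libraries alone TSC22D3 stood above ALAS1.

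**Figure D5:**
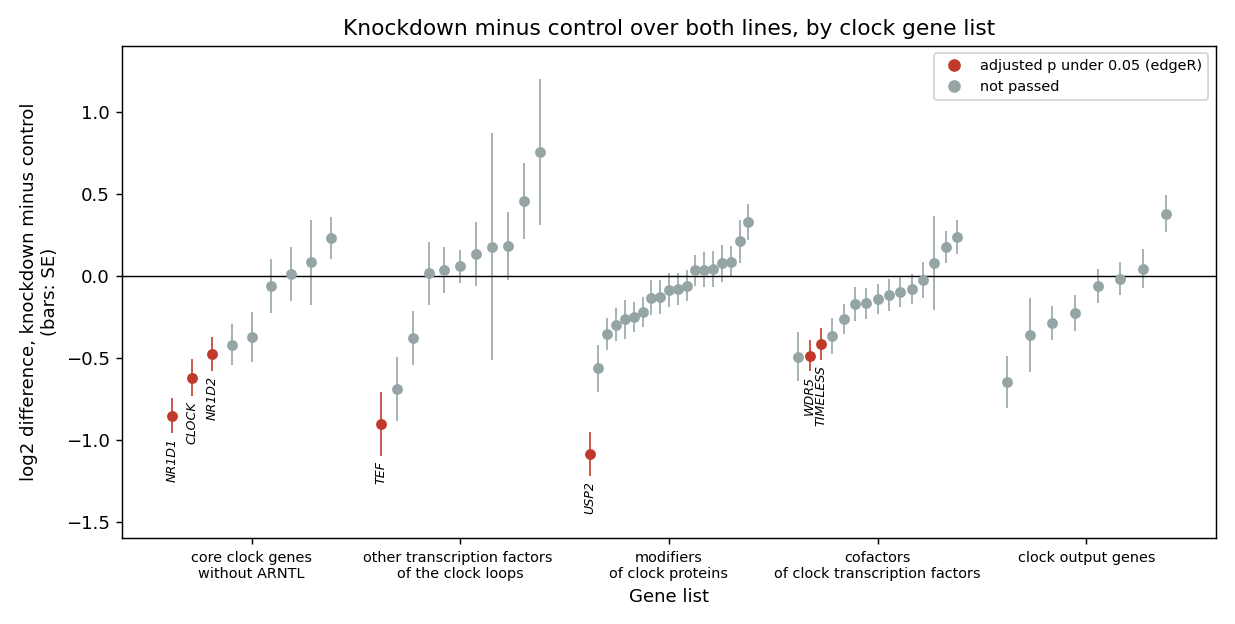
Knockdown minus control over both lines for the 9 clock genes other than ARNTL and the tested genes of the other clock lists, except 1 that is not reported here; the y axis is the log2 difference with its SE, each point is 1 gene, and red marks adjusted p under 0.05 by edgeR. The red points, NR1D1, CLOCK, NR1D2, TEF, USP2, WDR5 and TIMELESS, all lie below 0, the lowest being USP2 at -1.09.

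Between the lines, 18 of the same 54 genes were higher in KMS28BM, 18 were lower and 18 did not pass, beside 30.6% and 32.3% of all genes. The ROR receptor gene RORA, whose protein activates ARNTL at the ROR element, was listed at 23.77 FPKM in KMS28BM knockdown cells and 20.02 FPKM in KMS28BM control cells, against 2.21 FPKM in KMS18 knockdown cells and 3.17 FPKM in KMS18 control cells. It was higher in KMS28BM by 2.95 on the log2 scale (SE 0.21, and adjusted p = 3.29e-05 by edgeR). TSC22D3, a glucocorticoid-induced output gene, was higher by 1.85 (SE 0.11, and adjusted p = 1.92e-05 by edgeR). NPAS2, a paralog of CLOCK, held 40 and 41 expected counts in KMS28BM (knockdown, then control) and 2 and 0 in KMS18. USP2 stood at 169 times the KMS18 level in KMS28BM knockdown cells and at 192 times in KMS28BM control cells.

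BHLHE41, a repressor at E-boxes also called DEC2, was near 0 in KMS28BM and well detected in KMS18. It held 4.63 and 3 expected counts in KMS28BM (knockdown, then control) and 1079.94 and 1747 in KMS18, a log2 ratio of -7.89 between the knockdown libraries (-9.52 to -6.66) and -9.32 between the control libraries (-11.6 to -7.77). PASD1, an inhibitor of the ARNTL and CLOCK pair that is best known from tumours, was listed at 0 in both KMS28BM libraries, at 4.25 FPKM in KMS18 knockdown cells and at 3.88 FPKM in KMS18 control cells. ARNTL2, the paralog of ARNTL, was lower in KMS28BM, with a difference of -2.02 (SE 0.21, and adjusted p = 0.00021 by edgeR), and so was CIART, a repressor of the pair, with -2.44 (SE 0.46, and adjusted p = 0.00302 by edgeR). CIART was low in every library, with 14.24 and 10.04 expected counts in KMS28BM (knockdown, then control) and 83.07 and 41 in KMS18.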

How the data were processed

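RNA sequencing libraries of 4 cultures were used, 1 per cell line and construct. Per the labels, total RNA went into a TruSeq version 2 library, which does not keep strand. The authors deposited, per the file headers, an expected count (an estimated count that need not be whole), an FPKM value and a length for each gene. STAR, Bowtie2, HISAT, GRCh37 and hg19 are named in the submitters' processing notes, without a program for the counting. Expected counts were summed over identifiers with 1 symbol and rounded. Libraries held 37940949 to 39507281 of them.

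Tests were edgeR's quasi-likelihood test (edgeR 4.0.16, R 4.3.3) with TMM scaling, the default filter (minimum count 10) and cell line and construct in the model, which left 1 residual degree of freedom. Both comparisons come from this fit, with Benjamini-Hochberg adjustment over 14870 genes at 0.05. Ratios within a line or construct have exact 95% Poisson intervals and no p-value. Positions and overlaps come from GENCODE version 29 (GRCh38), matched by identifier, and promoters from RefSeq (GRCh38.p14), matched by symbol. No coordinate was converted. The lists hold 57 other clock genes, of which 54 passed the filter. Some listed genes are not reported here by name.

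The genes and lists were chosen with earlier results of these data known. Named genes are the 10 clock genes, PRKCA, up to 4 per direction and comparison from the other lists by size among those called (with up to 2 of a list with none), overlapping genes and the 5 most like ARNTL. Alternatives were another scaling, 2 other filters, DESeq2 1.42.0, limma 3.58.1 on log2(FPKM + 1) and log2(FPKM + 0.1), the highest identifier per symbol, no block, and each line or construct alone. Protein sequences were not analysed here.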

Additional observations from a re-analysis of the deposited data

Results flagged for a closer look

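For PER2 and CRY1 the knockdown ratio had a different sign in each line. The knockdown over control log2 ratio of PER2 was 0.14 in KMS28BM and -0.13 in KMS18, and both counting intervals included 0. For CRY1 it was 0.2 in KMS28BM and -0.32 in KMS18, and neither interval included 0. For CLOCK and PER1 the ratio between the lines had a different sign with each construct. The KMS28BM over KMS18 log2 ratio of CLOCK was 0.22 between knockdown and -0.01 between control libraries, and that of PER1 was -0.22 between knockdown and 0.09 between control libraries. The counting intervals of both control ratios included 0, so an opposite direction is not shown. These differences were not tested, because 1 library per line and construct leaves no degree of freedom for an interaction.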

How the results depend on the processing

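In the knockdown, 1312 genes were called, against 367 with no filter on low counts, 855 with the highest identifier per symbol and 0 with no replicate block (edgeR, 215 genes at an unadjusted p under 0.05). Of the 9 clock genes other than ARNTL, 3 were called, against 1 with no filter, 1 with limma on either FPKM scale and 0 with no replicate block. The knockdown difference of CRY1 was -0.06, and turned to 0.051 with limma on log2(FPKM + 1) and 0.062 on log2(FPKM + 0.1). Between the lines, 6 clock genes were called, against 3 with no replicate block. DESeq2 gave no adjusted p for PER3 in the knockdown. CRY2 passed between the lines with limma only (adjusted p 0.0389 and 0.0408). The causes of these changes were not tested. PER3 in KMS18 is limited by its counts.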

Other observations

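DBP, TEF and HLF encode the 3 related activators of the D-box, and NFIL3 encodes its repressor. HLF and NFIL3 were picked here after their values were seen. HLF was listed at 1.99 FPKM in KMS28BM knockdown and 1.26 FPKM in KMS28BM control cells, and at 2.07 FPKM in KMS18 knockdown and 1.39 FPKM in KMS18 control cells. Its knockdown difference of 0.46 on the log2 scale (SE 0.23, and adjusted p = 0.265 by edgeR) did not pass. NFIL3 was the most abundant of the 4 in every library, at 20.76 FPKM in KMS28BM knockdown and 17.91 FPKM in KMS28BM control cells, and at 38.33 FPKM in KMS18 knockdown and 37.26 FPKM in KMS18 control cells. It was lower in KMS28BM than in KMS18, with a log2 difference of -1.06 (SE 0.10, and adjusted p = 0.000144 by edgeR), and its knockdown difference was 0.06 (SE 0.10, and adjusted p = 0.775 by edgeR).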
